A study of Mus musculus with 18 samples.

Results

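The genes described here are 10 mouse genes of meiotic entry and of the meiotic chromosome axis: Stra8, Sycp1, Sycp2, Sycp3, Syce1, Smc1b, Rec8, Stag3, Hormad1 and Dmc1. They were taken by name, or by an older name with a matching accession, from the non-control probes of the arrays. All 10 were found, on 14 probes, among 27670 gene names on the array, and all 10 were among the 24968 genes tested. On mm7, the build of the files, the brightest probes lie at chr6:34870433-34870492 for Stra8, chr5:137257699-137257758 for Stag3, chr15:85147084-85147143 for Smc1b and chr3:95454122-95454181 for Hormad1, and no annotation of that build was used here. Every level below is the log2 signal of 1 probe in 1 RNA, so levels are set beside each other only within a probe.

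The study compared induced pluripotent stem cells (iPSC) labelled deficient in Dnmt3a and Dnmt3b, the de novo DNA methyltransferases, with control iPSC on 18 two-colour arrays. There were 3 deficient clones (8, A6 and B2) as iPSC, the same 3 clones labelled as having signs of differentiation, and 4 control iPSC lines (3, 4, 5 and 6). The other RNAs were V6.5 ESC, a mouse embryonic stem cell line, and embryonic fibroblasts (MEF). The labels name no alleles, strains or ages, and each clone or line stands for 1 culture as far as they say. All iPSC had been grown on irradiated MEF feeders and then on gelatin, without fresh feeders, before RNA was taken. Deficient iPSC were read on 6 arrays of 1 scan day, each against MEF or V6.5 ESC, and differentiating clones and control lines were read together on 12 arrays of another scan day. Deficient and control iPSC therefore share no slide and no scan day, and group and scan day cannot be told apart in their comparison. Dnmt3a was lower in deficient iPSC (log2 difference -1.49 ± 0.254 SE, adjusted p = 0.00138 by limma). Dnmt3b, whose probe need not lie in a deleted part, was at -0.32 ± 0.395 (adjusted p = 0.533), not called.

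One array, with control line 5 in Cy5 and differentiating clone 8 in Cy3, stood apart. Its channels correlated across genes at 0.952 to 0.959 with the other channels of the same labelled RNAs, where any other pair of channels of 1 RNA reached at least 0.993. Its own channels correlated with each other at 0.996, against 0.979 to 0.994 on the other arrays of that scan day. On it, Stra8 read 13.38 in the clone 8 channel, whose level over the other 3 arrays was 11.53, and Smc1b read 11.93 in the control line 5 channel, whose level over the other 2 was 10.46. The array was kept in the values below, and results that rest on it are also given without it, an alternative chosen after the data were seen.

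In germ cells Stra8 answers to retinoic acid and starts the meiotic programme, and the chromosomes then build a protein axis. Cohesin with the meiotic subunits Smc1b, Rec8 and Stag3 carries Sycp2 and Sycp3 on that axis, and Hormad1 binds it where breaks are made. Sycp1 and the central element protein Syce1 zip the homologous axes together, and Dmc1 is the recombinase that pairs broken ends with the homologue. Several such genes have promoters rich in CpG that carry DNA methylation in somatic cells, and in pluripotent cells a Polycomb complex that holds the E-box binding proteins Mga and Max and the repressor E2f6 sits at many of them.

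The promoters are shown because the study concerns DNA methylation and because the members moved together in part. The windows are those of RefSeq on GRCm38.p6, from 250 bases before to 50 after the start, and all 10 members matched. They held 10 to 30 CpG sites, with a median of 18, against a median of 7 over 27025 promoters. Fewer sites than in a member were held by 56.1% of all promoters for Stra8 and Sycp2, and up to 88.5% for Stag3. Both strands were searched for the E-box CACGTG and for the E2F motif TTCCCGC, whose other strand reads GCGGGAA. The E-box was present in 4 of 10 members and in 7.24% of all promoters, and the E2F motif in 4 of 10 and in 4.66%. Sycp3, Stag3 and Hormad1 held both, as did 0.463% of all promoters, while Stra8, Sycp2, Syce1, Rec8 and Dmc1 held neither in these windows. Both motifs contain a CpG, and the shares over all promoters were not matched for CpG sites. The matches are letters only, not sites shown to be bound. In the lines below the matches are in capitals.
Stag3 promoter: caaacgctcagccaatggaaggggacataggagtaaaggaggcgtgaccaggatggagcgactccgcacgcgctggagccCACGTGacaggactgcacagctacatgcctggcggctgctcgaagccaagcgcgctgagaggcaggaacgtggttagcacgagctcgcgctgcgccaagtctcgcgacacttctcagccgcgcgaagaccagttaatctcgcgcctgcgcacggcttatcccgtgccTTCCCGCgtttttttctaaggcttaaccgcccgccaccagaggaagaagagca
Hormad1 promoter: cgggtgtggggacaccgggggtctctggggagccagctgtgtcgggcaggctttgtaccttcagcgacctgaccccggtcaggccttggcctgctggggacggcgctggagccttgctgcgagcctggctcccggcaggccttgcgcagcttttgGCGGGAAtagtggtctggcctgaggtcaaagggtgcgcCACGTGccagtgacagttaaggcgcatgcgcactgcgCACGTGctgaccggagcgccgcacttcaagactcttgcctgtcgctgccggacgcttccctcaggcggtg
Smc1b promoter: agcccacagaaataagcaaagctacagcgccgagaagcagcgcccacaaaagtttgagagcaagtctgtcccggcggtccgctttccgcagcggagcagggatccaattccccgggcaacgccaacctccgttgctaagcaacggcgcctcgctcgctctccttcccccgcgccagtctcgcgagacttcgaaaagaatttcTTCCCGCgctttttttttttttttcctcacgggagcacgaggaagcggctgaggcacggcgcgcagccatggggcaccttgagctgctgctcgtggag
Sycp3 promoter: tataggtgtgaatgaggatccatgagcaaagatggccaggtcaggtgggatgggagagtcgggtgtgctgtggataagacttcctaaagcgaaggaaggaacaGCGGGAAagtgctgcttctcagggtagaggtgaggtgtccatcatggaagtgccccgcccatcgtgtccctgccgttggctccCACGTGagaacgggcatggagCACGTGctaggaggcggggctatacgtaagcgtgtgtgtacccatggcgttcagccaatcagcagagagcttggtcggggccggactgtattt
Stra8 promoter: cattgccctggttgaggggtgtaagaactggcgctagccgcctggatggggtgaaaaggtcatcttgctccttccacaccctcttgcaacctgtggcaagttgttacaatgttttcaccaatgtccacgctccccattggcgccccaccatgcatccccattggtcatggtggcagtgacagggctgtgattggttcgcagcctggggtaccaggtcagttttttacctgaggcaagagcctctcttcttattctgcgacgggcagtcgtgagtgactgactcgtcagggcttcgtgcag
Stag3 lies at chr5:138280259-138280558 (plus strand), and its E2F match begins 3 bases before the start. Hormad1 lies at chr3:95559427-95559726 (plus strand), with E-box matches that begin 57 and 20 bases before the start. Smc1b lies at chr15:85131908-85132207 (minus strand), with an E2F match that begins 48 bases before the start and with 29 CpG sites, against 30 for Stag3 and 24 for Hormad1. Sycp3 lies at chr10:88459337-88459636 (plus strand) with 15 CpG sites, and Stra8, with 10, at chr6:34920698-34920997 (plus strand). Sycp3 carries the same motifs as Stag3 and Hormad1 but had other values, as given below.

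Against control iPSC, 7 of the 10 genes were higher in deficient iPSC and 0 were lower (limma over lines, adjusted p under 0.05). At an unadjusted p under 0.05 the counts were 8 and 0, against 4914 and 9240 of 24968 genes. Over all genes this comparison called 50.4%, 16.7% higher and 33.7% lower, so a call by itself says little here. A call with a difference of at least 1 log2 unit was made for 0.849% of all genes and for 6 of the 10. The members' median difference was 1.41, against -0.06 over all genes tested. The members were chosen with earlier results of these data known, so these contrasts with all genes are descriptions. Without the array that stood apart the counts were again 7 and 0, against 16.6% and 33.3% of all genes. The share of probes well above background was 71.8% to 74.4% in deficient iPSC channels and 80.21% to 92.29% in control channels, and its part in the result was not tested. The V6.5 ESC RNA, read with the deficient clones, was also above all 4 control lines for 7 of 10 members, as it was for 25.8% of all genes. For Stra8, Sycp2, Stag3 and Dmc1, the deficient iPSC and V6.5 ESC were all above every RNA of the other scan day. The share of all genes with such a split was not counted. The values of each gene follow by role, as log2 signals in every line.

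**Figure D1:**
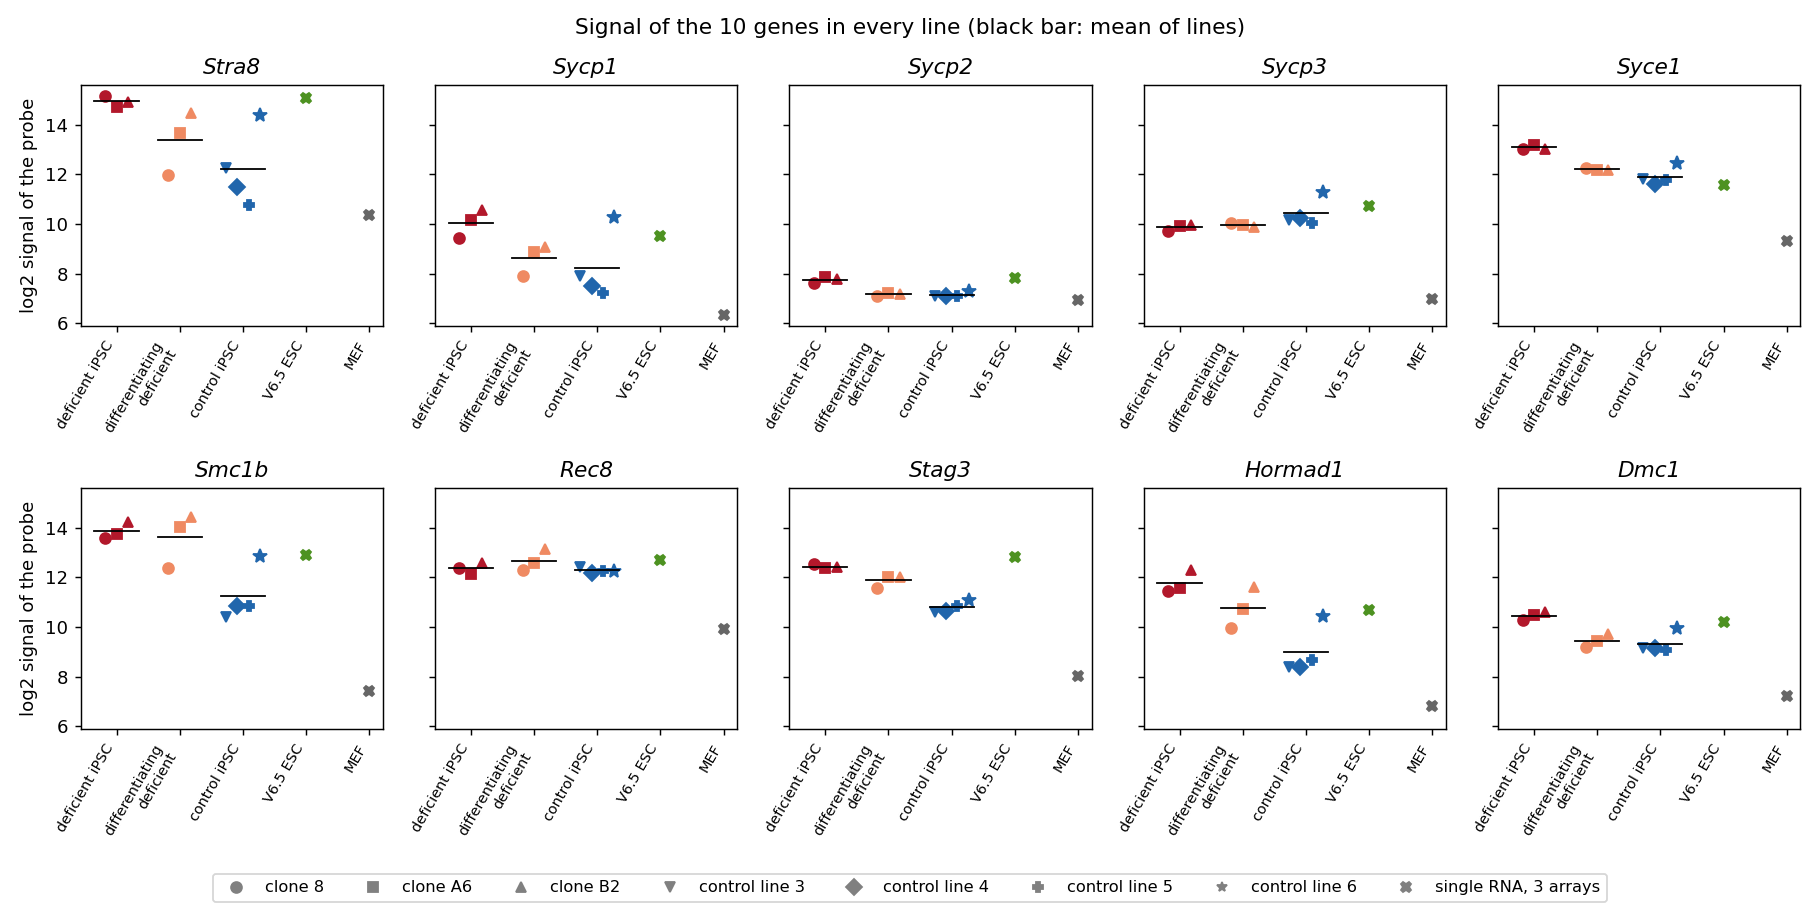
Log2 signal (vertical axis) of the brightest probe of each of the 10 genes in deficient iPSC, differentiating deficient clones, control iPSC, V6.5 ESC and MEF, with a symbol for each clone or line and a black bar at the mean of the lines. Stag3 shows 3 separate groups of iPSC, whereas control line 6 lies among or near the deficient clones for Stra8 and Sycp1.

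Stra8, the gene of meiotic entry, was at 15.16, 14.72 and 14.93 in deficient clones 8, A6 and B2, and at 11.98, 13.66 and 14.47 in the same clones differentiating. Control lines 3, 4, 5 and 6 gave 12.27, 11.47, 10.78 and 14.39, V6.5 ESC gave 15.09 and MEF 10.37. The deficient clones lay close together and above every control line, but the lowest of them was only 0.33 above control line 6. The difference was 2.71 ± 0.844 (SE, n = 3 and 4 lines, 6.53-fold, adjusted p = 0.0257 by limma). The spread in this fit also holds the 3 differentiating clones, counted as if unrelated to the same clones as iPSC. This call rested on every line but 1: without control line 3, 4 or 5 the adjusted p was 0.0511, 0.0646 and 0.059, and without clone 8, A6 or B2 it was 0.0686, 0.0583 and 0.0659. Without control line 6 the difference was 3.43 (adjusted p = 0.00187). A clone left out here was left out as iPSC only, and its differentiating value stayed in the fit.

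Of the meiotic cohesin subunits, Stag3 and Smc1b were higher in deficient iPSC and Rec8 showed no called difference. Stag3 was at 12.53, 12.38 and 12.40 in deficient clones 8, A6 and B2, and at 11.59, 12.01 and 12.03 in the differentiating clones. In control lines 3 to 6 it was at 10.59, 10.66, 10.85 and 11.08, with 12.84 in V6.5 ESC and 8.05 in MEF. The iPSC kinds did not overlap, and control line 6 was close to the other control lines. The Stag3 difference of 1.64 ± 0.14 had the smallest adjusted p of the members, 3.775e-05 (limma, n = 3 and 4 lines).

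Smc1b was at 13.58, 13.75 and 14.24 in deficient clones 8, A6 and B2, and at 12.37, 14.04 and 14.44 in the differentiating clones. Control lines 3 to 6 had 10.41, 10.83, 10.86 and 12.86, V6.5 ESC had 12.90 and MEF 7.42. Differentiating clones A6 and B2 were as high as the deficient iPSC, and clone 8 was lower. The difference from control iPSC was 2.62 ± 0.65 (adjusted p = 0.00933 by limma). Rec8, the meiotic kleisin, was at 12.13 to 12.57 in deficient clones and at 12.19 to 12.41 in control lines, which overlapped, and its difference was 0.08 ± 0.181 (adjusted p = 0.73). A second Rec8 probe gave a difference of 0.00 between the same groups.

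Among the axis proteins, Hormad1 was at 11.45, 11.59 and 12.30 in deficient clones 8, A6 and B2, and at 9.98, 10.73 and 11.62 in the differentiating clones. Control lines 3 to 6 stood at 8.40, 8.37, 8.67 and 10.45, V6.5 ESC at 10.69 and MEF at 6.82. All deficient clones were above all control lines, by 2.80 ± 0.564 in the mean (6.98-fold, adjusted p = 0.00327 by limma), and its second probe differed by 2.42. Sycp2 was dim, and its brightest probe was at 7.61, 7.85 and 7.77 in deficient clones and at 7.09 to 7.32 in control lines, with a difference of 0.59 ± 0.0725 (adjusted p = 0.000236). All 6 deficient and all 12 control channels read it well above background. A second Sycp2 probe differed by 0.62, but it was well above background in only 3 of 6 deficient and 4 of 12 control channels. The remaining probe differed by -0.02 and did not pass the filter on dim probes.

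Sycp3, the other axis protein, had no deficient clone above a control line. The signal was 9.70, 9.94 and 9.94 in deficient clones 8, A6 and B2, and 10.05, 9.95 and 9.90 in the differentiating clones. Control lines 3 to 6 had 10.17, 10.24, 10.05 and 11.29, V6.5 ESC had 10.71 and MEF 6.97. The deficient clones were below all control lines, without a call (-0.58 ± 0.266, adjusted p = 0.102 by limma), and without control line 6 the difference of -0.29 was called (adjusted p = 0.0146). Without the array that stood apart, control line 5 was at 10.44.

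Of the proteins between the axes, Syce1 was at 13.03, 13.18 and 13.04 in deficient clones 8, A6 and B2, and at 12.25, 12.18 and 12.18 in the differentiating clones. The control lines 3 to 6 gave 11.81, 11.59, 11.75 and 12.48, V6.5 ESC gave 11.56 and MEF 9.30. Deficient iPSC were the highest of all RNAs, by 1.18 ± 0.18 over control iPSC (adjusted p = 0.000759 by limma). Sycp1 was at 9.44, 10.16 and 10.58 in deficient clones and at 7.89, 8.86 and 9.09 in the differentiating clones. For control lines 3 to 6 the signal was 7.89, 7.49, 7.21 and 10.27, for V6.5 ESC 9.51 and for MEF 6.33. Control line 6 lay within the deficient clones, and the difference of 1.85 ± 0.701 was not called (adjusted p = 0.0545), whereas without control line 6 it was 2.53 (adjusted p = 0.000816).

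Dmc1, the recombinase, was at 10.29, 10.47 and 10.62 in deficient clones 8, A6 and B2, and at 9.21, 9.45 and 9.71 in the differentiating clones. Its control lines 3 to 6 were at 9.17, 9.14, 9.06 and 9.98, V6.5 ESC at 10.20 and MEF at 7.23. The difference of deficient from control iPSC was 1.13 ± 0.223 (adjusted p = 0.00297 by limma).

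The 3 and 4 lines of deficient and control iPSC did not overlap for 8 of 10 members, Sycp3 in the opposite direction to the other 7, against 51.9% of all genes. Control line 6 was the highest control line for 9 of 10 members, Rec8 being the exception, and for 34.8% of all genes. It exceeded the mean of lines 3 to 5 by 2.88 for Stra8, 2.74 for Sycp1, 2.16 for Smc1b and 1.97 for Hormad1, and by 0.38 for Stag3. This line also differed in its marker lists, described further on: its list mean was 11.70 for fibroblast and feeder markers, against 12.32 to 12.68 in lines 3 to 5, and 10.63 for germ cell markers, against 10.13 to 10.23. It was 13.68 for pluripotency markers, against 13.34 to 13.61. The part of these cells in its levels was not tested. Sycp1 and Hormad1 lie on chromosome 3 and were highest in clone B2 among the deficient iPSC. They exceeded the mean of the other 2 clones by 0.79 and 0.78 there, while the median over 916 genes of chromosome 3 was 0.06. Members on other chromosomes were also highest in that clone, Smc1b by 0.58, Rec8 by 0.31 and Dmc1 by 0.24.

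**Figure D2:**
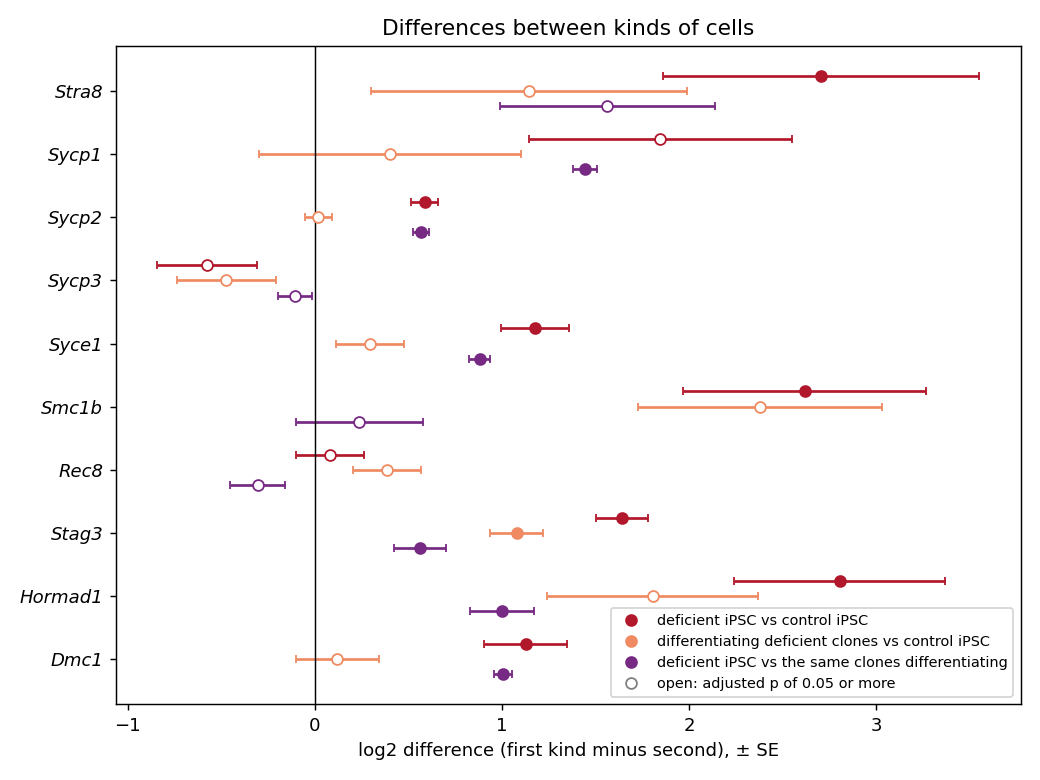
Log2 difference with its SE (horizontal axis) of each gene in 3 comparisons: deficient iPSC minus control iPSC, differentiating deficient clones minus control iPSC, and deficient iPSC minus the same clones differentiating. Filled points have an adjusted p under 0.05. Stag3 is filled in all 3, and Rec8 and Sycp3 in none.

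Differentiating deficient clones and control lines were read on the same arrays and scan day. Of the 10 members only Stag3 was called there, higher by 1.08 ± 0.14 (adjusted p = 0.00788 by limma, n = 3 and 4 lines, higher in 3 of 3 clones). Over all genes 8.05% were called, 3.96% higher and 4.1% lower. Lines of both groups did not overlap for Stag3 alone of the members and for 19.6% of all genes, and 0.533% of all genes were called with at least 1 log2 unit higher. At an unadjusted p under 0.05, 3 members were higher and 0 lower, against 2721 and 2696 of 24968 genes. Smc1b, at 2.38 ± 0.65, and Hormad1, at 1.81 ± 0.564, did not pass (adjusted p = 0.0601 and 0.0914), nor did Stra8 at 1.14 ± 0.844 (0.539). Without control line 6, 4 members were called, as Smc1b at 2.92 (0.00885), Hormad1 at 2.30 (0.00969) and Syce1 at 0.48 (0.00459) joined Stag3. Without clone 8, Smc1b at 3.00 joined it (0.0306). Without the array that stood apart, Smc1b at 2.42 joined it as well (0.0465), and 11% of all genes were called, 5.51% higher and 5.52% lower. Sycp3 then lay below all control lines in the differentiating clones, without a call (-0.52, adjusted p = 0.246), as lines did not overlap for 23.2% of all genes. Markers of other cells moved here too. Of 10 primitive endoderm markers 6 were higher and 0 lower in the differentiating clones, with list means of 10.53 to 11.67 there and 8.63 to 9.66 in control lines. Of 10 fibroblast and feeder markers 0 were higher and 3 lower, with list means of 11.10 to 11.66 in the differentiating clones and 11.70 to 12.68 in control lines. Their part in the result was not tested.

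Each slide held 1 clone with all 4 control lines, and the clones differed in size of effect. For Smc1b, clones 8, A6 and B2 were above the control lines of their own slide by 1.07, 2.84 and 3.23, and for Hormad1 by 0.97, 1.77 and 2.67. For Stag3 these within-slide differences were 0.74, 1.24 and 1.26, and for Syce1 0.32, 0.28 and 0.29. All 3 clones were thus above their own control lines for these 4 genes and for Rec8, at 0.06, 0.28 and 0.82. Stra8 was split, at -0.23 in clone 8, 1.45 in A6 and 2.21 in B2, and so was Sycp1, at -0.32, 0.65 and 0.87. For clone 8 these values include the array that stood apart. Without it, against control lines 3, 4 and 6 of that slide, clone 8 was at -1.04 for Stra8, -0.91 for Sycp1, -0.64 for Sycp3 and -0.27 for Dmc1, and at 1.08 for Smc1b, 0.98 for Hormad1, 0.92 for Stag3, 0.27 for Syce1 and 0.10 for Rec8. With the array, Sycp3 was lower in all 3 clones, at -0.34, -0.51 and -0.57, and Dmc1 and Sycp2 lay between -0.11 and 0.37. With the replicate number, which is the slide and the clone, as a block, 3 members were called: Stag3 (adjusted p = 0.0204), Syce1 at 0.30 (0.0131) and Sycp3 at -0.47 (0.0207). With this block 4839 of all genes were called, against 2011 in the fit over lines. The control values in this block are slide means of the same 4 control lines. Their spread is that of repeat readings and not the spread between control lines. Over lines, Syce1 and Sycp3 were not called (adjusted p = 0.42 and 0.372 by limma). These 3 also passed with the block and without that array, Stag3 at 1.14 (0.0123), Syce1 at 0.28 (0.013) and Sycp3 at -0.57 (0.0109).

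**Figure D3:**
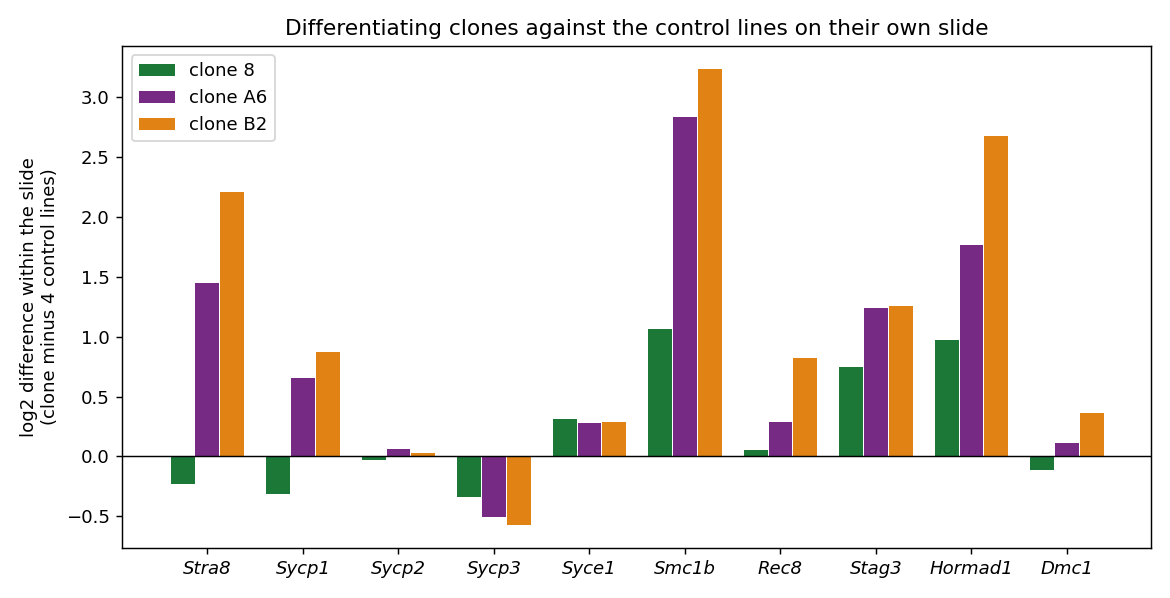
Log2 difference of each differentiating clone from the mean of the 4 control lines on its own slide (vertical axis), with 3 bars for each gene, for clones 8, A6 and B2. Clone 8 has the smallest bar for Smc1b, Stag3 and Hormad1 and lies below 0 for Stra8 and Sycp1, and Sycp3 is below 0 in all 3 clones. The bars of clone 8 include the array that stood apart, without which Stra8 is at -1.04 and Sycp1 at -0.91.

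Between deficient iPSC and the same clones differentiating, with clone as a block, 6 of 10 members were higher in deficient iPSC and 0 lower. Over all genes 52.5% were called, 19.2% higher and 33.2% lower. At an unadjusted p under 0.05 the members' counts were again 6 and 0, against 5618 and 9512 of 24968 genes. The line values did not overlap for 6 members and for 62.1% of all genes. Stra8, which was not called, is among these 6, and Hormad1, which was called, is not. These 2 kinds too were read on different scan days, which cannot be told apart from the state. Sycp1 was higher by 1.45 ± 0.0645, Dmc1 by 1.01 ± 0.0501, Hormad1 by 1.00 ± 0.171, Syce1 by 0.88 ± 0.0568, Sycp2 by 0.57 ± 0.0446 and Stag3 by 0.56 ± 0.138 (limma, n = 3 pairs, adjusted p between 0.00407 and 0.032). Without clone A6, limma called 0 of the 10 and 0 of all genes, with 6 members and 10321 genes at an unadjusted p under 0.05. Stra8 at 1.56 ± 0.573, Smc1b at 0.24 ± 0.339, Sycp3 at -0.10 ± 0.0923 and Rec8 at -0.31 ± 0.146 were not called (adjusted p = 0.0831, 0.578, 0.383 and 0.148). Without clone 8, Stra8 at 0.76 (adjusted p = 0.0178), Rec8 at -0.51 (0.004) and Smc1b at -0.25 (0.0177) were called, the last with its direction turned. Without the array that stood apart, 6 members were again higher and 0 lower, against 19% and 32.5% of all genes, and Stra8 was at 1.69 (adjusted p = 0.105). Of 10 primitive endoderm markers, 10 were lower in deficient iPSC in this comparison, with the mean log2 signal of the list at 8.64 to 10.38 in deficient iPSC and at 10.53 to 11.67 in the differentiating clones. Clone 8 had the highest list mean in both states. The part of these markers in the result was not tested.

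Deficient iPSC and V6.5 ESC were read on the same 3 arrays, 1 per clone, with V6.5 ESC always in Cy5, and there was 1 RNA of V6.5 ESC. Of the 10 members 1 was called, and of all genes 5.41%, with 3.54% higher and 1.87% lower. Syce1 was above V6.5 ESC by 1.40, 1.74 and 1.42 in clones 8, A6 and B2 (1.52 ± 0.207 in the fit, 2.87-fold, adjusted p = 0.000506 by limma). Hormad1 was above it by 0.56, 0.77 and 1.497 and Smc1b by 0.43, 0.77 and 1.26, neither called (adjusted p = 0.541 and 0.673). Sycp3 was below it by more in clone 8, at -1.52, than in A6, at -0.56, or B2, at -0.76 (adjusted p = 0.139). Stag3 was at -0.44, -0.42 and -0.36, with an adjusted p of 0.357. Stra8, at 0.25, -0.47 and -0.20, had no common direction. The spread in this fit holds the differences between control lines on the other arrays. With a term for each clone and control line there, chosen after the data were seen, limma called 5 members. Syce1, Smc1b at 1.01 (adjusted p = 0.00701) and Hormad1 at 1.06 (0.0493) were higher, and Sycp3 at -0.88 (0.0191) and Rec8 at -0.34 (0.0325) lower. The 5.41% of all genes is from the fit without these terms, so it is no background for these 5.

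Against the mean of the control lines V6.5 ESC was higher by 2.86 for Stra8, 2.04 for Stag3, 1.71 for Hormad1, 1.66 for Smc1b, 1.30 for Sycp1, 0.87 for Dmc1, 0.66 for Sycp2, 0.42 for Rec8 and 0.28 for Sycp3. For Syce1 the difference was -0.35. These are descriptions across scan days, with no test. They share the control lines with the comparison of deficient and control iPSC.

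MEF was 1 RNA, read on 3 arrays and always in Cy3, so its own spread was not measured, and the other arrays supply part of the spread in the fit. In that comparison 10 of 10 members were higher in deficient iPSC, against 58.1% of all genes called, 28.2% higher and 30% lower. For 9 of 10 the difference was at least 1 log2 unit, as for 11.5% of all genes. Smc1b was higher by 6.40, 6.43 and 6.89 in clones 8, A6 and B2 (6.57 ± 0.795, adjusted p = 1.739e-06 by limma). Stra8 was higher by 4.58, 4.50 and 4.57, Stag3 by 4.58, 4.31 and 4.30, Syce1 by 3.81, 3.74 and 3.81, Dmc1 by 3.27, 3.28 and 3.35 and Rec8 by 2.52, 2.22 and 2.59. Sycp1, Sycp2, Sycp3 and Hormad1 were not well above background in any of 3 MEF channels on their brightest probe, so MEF gives a bound for them. Measured against the lowest signal well above background, or the probe's own signal where higher, deficient iPSC were at least 29.5-fold higher for Hormad1 (adjusted p = 6.873e-06), at least 8.98-fold for Sycp1 (0.000885), at least 7.40-fold for Sycp3 (1.035e-06) and at least 1.70-fold for Sycp2 (9.634e-07). The adjusted p-values are those of limma for the measured differences, and the bounds themselves were not tested. The Sycp2 bound holds for its brightest probe only. Its second probe, well above background in 1 of 3 MEF channels, differed from MEF by 0.03, and its remaining probe by 0.01.

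**Figure D4:**
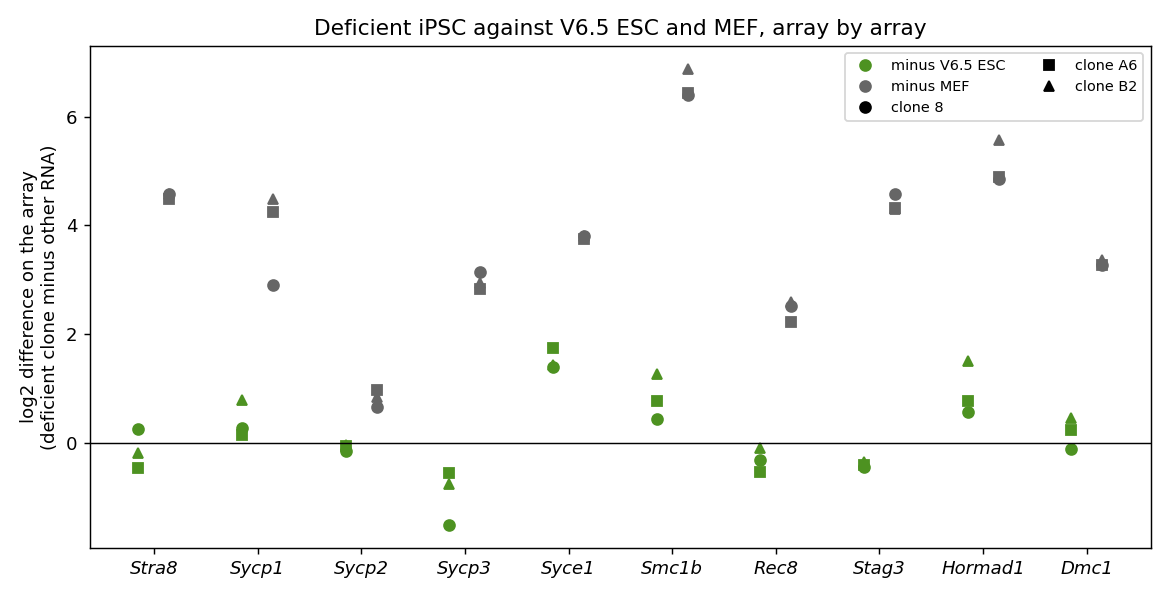
Log2 difference of the deficient clone from the other RNA on the same array (vertical axis) for each gene, with V6.5 ESC and MEF as the other RNA and a symbol for each clone. The points against V6.5 ESC lie on both sides of 0, with Syce1 at 1.40 to 1.74, and those against MEF lie above 0 for all 10 genes.

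Other genes of the same processes were counted from lists, also chosen with earlier results of these data known. Their counts stand beside 16.7% higher and 33.7% lower over all genes for deficient against control iPSC. For the differentiating clones those shares were 3.96% and 4.1%. Of 9 further genes of the synaptonemal complex and axis, 6 were higher in deficient than in control iPSC and 0 lower, with a median difference of 0.56 against -0.06 over all genes. The highest were Fkbp6, a protein of synapsed chromosome cores, at 1.93 ± 0.296, the Hormad1 relative Hormad2 at 1.65 ± 0.247, and the central element protein Syce3 at 1.14 ± 0.171. In the differentiating clones 4 of these 9 were higher than in control iPSC and 0 lower, with Fkbp6 at 1.92 ± 0.296, Syce3 at 1.33 ± 0.171 and Hormad2 at 0.97 ± 0.247. Of 20 further recombination genes 8 were higher and 4 lower in deficient iPSC, with a median difference of 0.11. Rec114, which takes part in break formation, was higher by 2.18 ± 0.337, Tex11, a crossover gene, by 1.33 ± 0.169, and Zcwpw1, a reader of histone methylation at break sites, by 0.79 ± 0.12. In the differentiating clones only Rec114 of these 20 was called, at 1.37 ± 0.337. Of 6 genes that tie telomeres to the nuclear envelope 3 were higher and 1 lower, with Terb2 at 1.29 ± 0.227 (adjusted p = 0.00163 by limma).

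Of 11 regulators of meiotic entry 6 were higher and 3 lower in deficient iPSC. Dazl, an RNA-binding protein that licenses germ cells for meiosis, was higher by 3.31 ± 0.555, Sohlh2, a germ cell transcription factor, by 0.94 ± 0.308, and Dmrt1, which controls Stra8 in the gonad, by 0.92 ± 0.174. Dazl was at 11.82, 12.49 and 12.10 in deficient clones 8, A6 and B2, and at 8.39, 8.30, 8.32 and 10.28 in control lines 3 to 6, with line 6 again apart. The mitotic counterparts of the cohesin subunits did not share the direction of Stag3 and Smc1b: of 5, 1 was higher and 3 lower, with Stag2 at -0.89 ± 0.0448, Stag1 at -0.51 ± 0.0936 and Smc1a at -0.40 ± 0.0842. These 3 split by scan day, with V6.5 ESC and MEF on the side of the deficient iPSC. Stag2 was at 11.23 to 11.36 in deficient clones, 11.14 in V6.5 ESC and 10.82 in MEF. In differentiating clones it was at 12.03 to 12.13, and in control lines at 12.13 to 12.24. Leaving out MEF, the members Stra8, Sycp2, Stag3 and Dmc1 split by scan day as well, as given above. The part of the scan day was not tested. Of 16 genes of later meiosis and sperm formation 2 were higher and 9 lower, with a median difference of -0.16. The sperm lactate dehydrogenase gene Ldhc was at 0.85 ± 0.173, the transition protein gene Tnp1 at -0.55 ± 0.055 and the heat shock gene Hspa1l at -0.42 ± 0.0455. Of 14 genes for repressors of germline promoters 3 were higher and 2 lower, a share of higher genes near that of all genes, with Max at 1.03 ± 0.115, L3mbtl2, a partner of Mga, at 0.79 ± 0.156 and Trim28, a corepressor, at 0.72 ± 0.0974. Tnp1, Hspa1l and Max also split by scan day over all RNAs, while Ldhc, L3mbtl2 and Trim28 did not.

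Markers of other cells moved with this comparison. Of 10 fibroblast and feeder markers 9 were lower in deficient iPSC, with the mean log2 signal of the list at 10.96 to 11.06 in deficient clones, 11.70 to 12.68 in control lines and 15.77 in MEF. Of 11 pluripotency markers 5 were higher and 0 lower (also 5 and 0 at an unadjusted p under 0.05), with list means of 13.83 to 14.08 in deficient clones and 13.34 to 13.68 in control lines. Of 10 germ cell markers, which include Dazl, 4 were higher and 2 lower, with list means of 10.82 to 11.05 in deficient clones and 10.13 to 10.63 in control lines. Of 10 primitive endoderm markers 0 were higher and 1 lower. The mean of that list was 10.38 in deficient clone 8, above the 8.63 to 9.66 of control lines. In deficient clones A6 and B2 it was 8.64 and 8.66. The part of these marker lists in the members' differences was not tested. Since these are bulk RNAs, a larger share of cells with a transcript and more transcript per cell cannot be told apart.

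**Figure D5:**
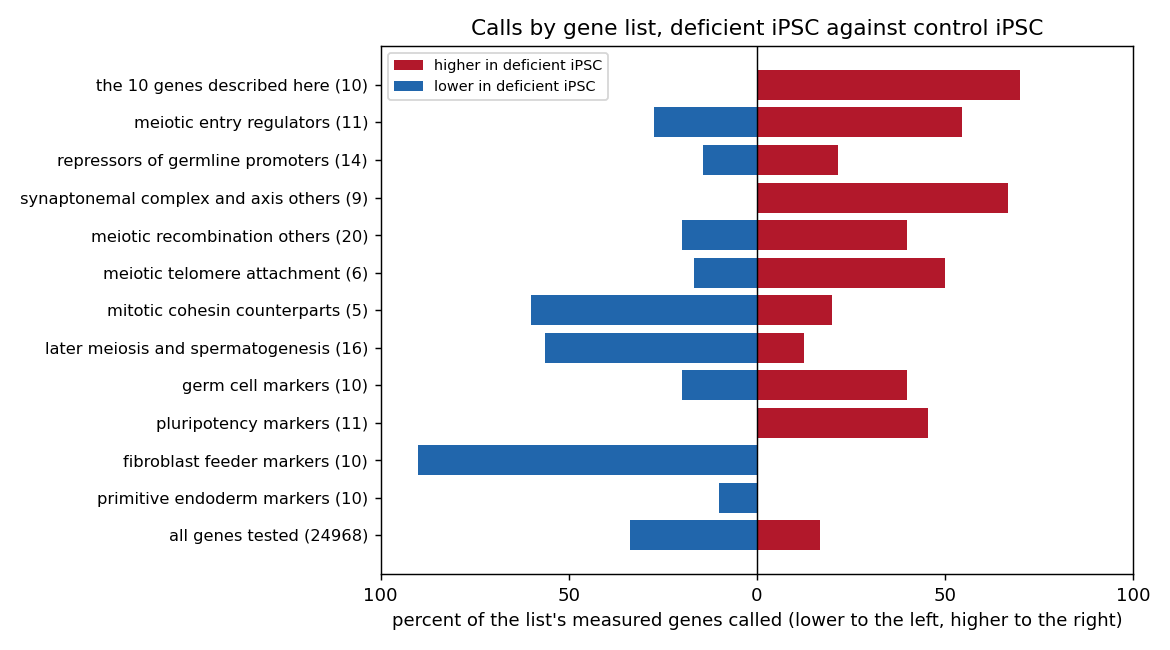
Percent of each list's measured genes (number in brackets) called higher (to the right) or lower (to the left) in deficient iPSC against control iPSC. The genes and lists were chosen with earlier results of these data known. The 10 genes described here and the other synaptonemal complex and axis genes have calls only to the right, and the fibroblast and feeder markers only to the left, beside 16.7% higher and 33.7% lower over all genes.

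Over the 12 line values, meaning 10 clones and lines with V6.5 ESC and MEF, the members shared a profile in part. Pearson's r was 0.97 between Smc1b and Hormad1 and 0.94 between Stra8 and Sycp1, while Sycp3 had 0.35 with Sycp2 and 0.49 with Stra8. Without MEF, over 11 values, r was 0.96 between Smc1b and Hormad1 and 0.92 between Stra8 and Sycp1, and Sycp3 had -0.0079 with Sycp2 and 0.08 with Stra8. The points share arrays. The mean standardised level of the 10 was 0.65, 0.78 and 0.92 in deficient clones 8, A6 and B2, and -0.19, 0.22 and 0.43 in the same clones differentiating. It was -0.47, -0.56, -0.58 and 0.42 in control lines 3 to 6, 0.64 in V6.5 ESC and -2.26 in MEF. The genes whose levels were most like this mean over the 12 values were Fam122b (r = 0.985), Stk31 (0.985), Itpka (0.981), Pdcl2 (0.978) and Rinl (0.976). Stk31, a gene of the germ line, was at 9.87, 10.39 and 10.37 in deficient clones, 8.69, 8.58, 8.47 and 9.30 in control lines 3 to 6, and 10.17 in V6.5 ESC.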

How the data were processed

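Two-colour Agilent arrays of a mouse design with 45018 features were used. The deposited scanner files give intensity per spot and channel (mean signal, local background and the scanner software's processed signal, per the file headers). The authors' value table holds log2 ratios, deposited with limma named in the submitters' processing notes without a version, and its scaling and direction are not stated: against the scanner ratios its columns had r of 0.635 to 0.999, slopes of 1.01 to 1.41 and medians of -0.01 to 0.01, and it served as an alternative. Probe coordinates in the files are on mm7.

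In limma 3.58.1 under R 4.3.3, background was corrected with normexp (offset 50), dyes were normalized by loess within arrays and average signals by Aquantile. Control spots were left out after background correction, and spots with an outlier mark were set missing. Probes passed (36964 of 41174) if a share of 0.5 or more of the channels of some kind of RNA had a signal well above background. A separate-channel fit (12 line and state terms and a dye term, intra-spot correlation 0.771) gave 1 log2 value for each line, and the brightest probe stood for a gene. Comparisons among iPSC kinds were fitted with lmFit and eBayes on these line values, and those with V6.5 ESC and MEF on the array log ratios. Both comparisons with control iPSC came from 1 fit of deficient iPSC, differentiating clones and control lines, which share its estimate of spread. That fit had no term for the clone. P-values were adjusted by Benjamini-Hochberg over all 24968 genes, and a call is an adjusted p under 0.05. They measure only the spread between these lines or arrays, and the number of arrays limits precision. Differences are on the scale with offset 50, which understates differences between low signals.

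Probes were named through the accession (14240 genes), symbol (3036) or synonym (1473), and the other 6219 keep the name in the files. The named genes are the 10 members, up to 3 called genes of each list with the largest difference, and the 5 with the highest r to the members' mean. The members and lists were chosen with earlier results of these data known. Within the comparison of differentiating clones with control iPSC, samples of the same replicate number share a slide. Their deviations from the group means correlated at 0.721, 0.76 and 0.601. Both sides were read from the same spots, so these correlations hold spot and slide effects and cannot show a pairing beyond the shared slide. Tests were tried on simulated data. Alternatives covered probe choice, filter, background, normalization, lines left out, slide, replicate block, the deposited ratios and, added after the data were seen, 1 array left out.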

Additional observations from a re-analysis of the deposited data

Results flagged for a closer look

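Control line 6 stood apart from control lines 3, 4 and 5 for 4 of the 10 genes, by a gap to the nearest of them that exceeded Dixon's critical value for 4 samples. Its log2 signal was 7.32 for Sycp2, where the other control lines were at 7.09 to 7.12. It was 11.29 for Sycp3, where the others were at 10.05 to 10.24, and 10.45 for Hormad1, where the others were at 8.37 to 8.67. For Dmc1 it was 9.98, where the others were at 9.06 to 9.17. Without the array of control line 5 and differentiating clone 8 that stood apart, the ratio of gap to range for Sycp3 was 0.726. This was under the critical value, which Sycp2 (0.929), Hormad1 (0.97) and Dmc1 (0.927) still exceeded. Sycp1 (0.881) and Smc1b (0.846) then exceeded it too, but not with that array (0.778 and 0.817). Chance flags about 1 group in 20, and over all genes 9.7% were flagged among the control lines, 7.38% for line 6.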

How the results depend on the processing

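Of the members' differences recomputed under the alternatives, 135 of 150 between deficient and control iPSC, 143 of 160 between differentiating clones and control iPSC, 65 of 80 between deficient iPSC and the same clones differentiating, 82 of 90 against V6.5 ESC and 90 of 90 against MEF kept direction and side of the threshold. Between deficient and control iPSC 6 to 9 members were called with a line left out. Between differentiating clones and control iPSC the count of 1 became 1 to 4 with a line left out, 3 with the replicate block, 2 without the 1 array that stood apart, 3 with both and 6 with the deposited log2 ratios, where each array counts. Between deficient iPSC and the same clones differentiating it was 0 to 9. Against V6.5 ESC it was 2 with the processed signals, 2 with the deposited ratios and 5 with a term per clone and control line. The number of all genes called changed with the alternatives too, as given in part further on. No paired analysis was possible between deficient and control iPSC, whose replicate numbers mark different arrays. Directions turned for small differences. With a line left out, the ranges were -0.0216 to 0.20 for Rec8 in deficient against control iPSC, -0.0041 to 0.0733 for Sycp2 and -0.004 to 0.335 for Dmc1 in differentiating clones against control iPSC, -0.178 to 0.0165 for Sycp3 and -0.245 to 0.505 for Smc1b in deficient iPSC against the same clones differentiating, and -0.337 to 0.0226 for Stra8 against V6.5 ESC. Rec8 in deficient against control iPSC was at -0.0979 with processed signals and at -6e-04 without that array. Sycp3 at 0.198 and Rec8 at 0.041 turned against the same clones differentiating when arrays were not normalized to each other, and Sycp2 against V6.5 ESC was at 0.0374 with deposited ratios. The cause was not tested. When arrays were not normalized to each other, the median gene in deficient against control iPSC was at 0.44 and 96.4% of 19929 called genes were higher, against -0.06 and 33.1% of 12580 with it; Sycp1 at 2.07 and Rec8 at 0.43 then passed. Sycp1 also passed with processed signals (2.90) and with offset 0 (2.27). With slide as a random block 6031 genes and 7 members were called. There, readings of the same control line on different slides counted as separate values. In the replicate block the spread between control lines does not enter. Genes called in differentiating clones numbered 2011, and 234 to 3293 with a line left out, 4839 with the replicate block, 8656 with deposited ratios and 1235 with only these 2 kinds in the fit; against V6.5 ESC they numbered 1350, and 384 at the lowest.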
